A study of Mus musculus with 28 samples.

Results

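Solute carriers are a large superfamily of membrane transporters, and 144 of their genes were expressed in mouse E14 embryonic stem cells during exit from and return to 2iL culture. They were chosen by symbol and level. The table held 334 genes with a solute carrier symbol (Slc, a family number, the letter a and a member number) among 30386 genes. Those with a mean of at least 5 CPM (a gene's counts scaled to the same total in all libraries) in any of the 7 groups were kept, and Slc2a1, Slc2a3, Slc16a1 and Slc16a3, which carry glucose and lactate, were left out by name. A further 186 symbols stayed under 5 CPM in every group, 18 of them at 0 in every library. At the edge of the rule, Slc12a8 (5.11 CPM in its highest group), Slc10a3 (5.49 CPM) and Slc30a7 (5.58 CPM) lay just inside, and Slc1a2 (4.96 CPM), Slc31a2 (4.84 CPM) and Slc37a2 (4.80 CPM) just outside. The kept genes were sorted by the main substrate of their family into 11 classes.

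Each transporter of this kind carries a small solute across a membrane without itself hydrolysing ATP, either down a gradient or coupled to an ion or to a second solute that moves with or against it. Plasma membrane members supply amino acids, nucleosides, vitamins, metals and osmolytes. Others load vesicles and lysosomes, and the family 25 proteins carry nucleotides, phosphate, amino acids and acylcarnitines across the inner mitochondrial membrane. Pluripotent cells depend on amino acid uptake in particular, since threonine, glutamine and methionine feed their chromatin modifications and growth.

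All cells were of 1 line, E14, an established line of mouse embryonic stem cells, grown on gelatin in serum-free N2B27 medium. The group called 2iL was kept with CHIR99021, an inhibitor of the kinase GSK3, PD0325901, an inhibitor of the kinase MEK, and the cytokine LIF, which together hold the cells in the naive state. The groups called 24 h, 48 h, 96 h and 120 h had been in N2B27 alone for that time, which starts differentiation toward epiblast and then neural cells. The groups 48 h + 2iL and 96 h + 2iL had been without the inhibitors and LIF for 48 or 96 h and were then given 2iL again for 24 h. Each group had 4 libraries, 1 from each of experiments 1 to 4, and the labels do not say whether these differ in more than the experiment, so p-values measure the spread between experiments of 1 line. Per-library values below are given in the order of experiments 1 to 4.

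RNA was measured by 3′ digital gene expression sequencing, which reads transcript ends, so a level is not divided by transcript length and levels are compared here between samples and not between genes. Gene counts ranged from 1554830 to 2828694 per library. The summed level of 10 naive markers was 2241 to 2526 CPM in the 2iL libraries, 65.8 to 95.5 CPM at 120 h and 1532 to 1841 CPM in 48 h + 2iL. Experiment 3 stood apart from 96 h on: in 96 h + 2iL its naive sum was 104 CPM against 326, 628 and 673 CPM in the others, and its sum of 8 neural progenitor markers was 811 CPM against 165, 230 and 464 CPM. Markers of other cells were measured too. Per library, 13 endoderm markers summed to 2.83 to 26.3 CPM, 9 trophoblast markers to 4.36 to 132 CPM and 9 fibroblast (feeder) markers to 104 to 443 CPM. Within a group, 3 to 6 of the endoderm markers and 3 to 6 of the trophoblast markers were at 0 in all 4 libraries. No fibroblast marker was at 0 in all 4 libraries of any group. The part of differentiation stage or of such cells in any single result was not tested, and in bulk RNA fewer cells of a type and less RNA per cell cannot be told apart.

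Of the 144 genes, 143 had enough counts to be tested and 103 changed across the 7 groups, which is 72.0% against 62.3% of the 11080 genes tested. The words rose, fell and changed are used of genes whose adjusted p by edgeR's quasi-likelihood test was under 0.05 over all genes. Falls outnumbered rises at each time without 2iL. At 24 h 16 rose and 23 fell, 11.2% and 16.1% of those tested, against 7.68% and 8.29% of all genes. At 48 h 20 rose and 30 fell, 14% and 21% against 14.6% and 13.2%. At 96 h 27 rose and 41 fell, 18.9% and 28.7% against 21.9% and 19.2%. At 120 h 32 rose and 47 fell, 22.4% and 32.9% against 24.6% and 22.6%. The share that rose therefore lay above the background at 24 h and near or below it later, and the share that fell lay above it at all 4 times. The same shares of all genes are the background for the counts of classes and short lists at these times below. Those counts are small, and some lie near it. The median log2 change of the transporters from 2iL was -0.22 at 24 h, -0.23 at 48 h, -0.17 at 96 h and -0.07 at 120 h, beside 0.01, 0.02, 0.02 and 0.01 over all genes. With library sizes scaled by total counts instead of TMM, the 24 h calls split into 13 rises and 26 falls and the 120 h calls into 36 rises and 43 falls. That scaling moved the median of all genes at 120 h to 0.13 on the log2 scale, and directions below are relative to the TMM median. Without experiment 3, an alternative added after seeing the data, 15 rose and 16 fell at 24 h and 28 rose and 40 fell at 120 h.

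The level of all members summed was 5056 ± 80.1 CPM in 2iL (SD, n = 4), 4566 CPM at 48 h and 3870 ± 76.5 CPM at 120 h, and it was 4619 CPM in 48 h + 2iL and 4281 CPM in 96 h + 2iL. Among single genes, 43 had their highest group mean in 2iL, 24 at 24 h, 24 at 120 h and 26 in 96 h + 2iL, whereas 9 peaked at 48 h and 8 at 96 h. Against 2iL, 46 genes rose at 1 time or more, 58 fell at 1 time or more and 43 were called at none of the 4 times. These peaks and patterns over times were counted for the transporters only. With no share of all genes beside them, they do not show whether transporters differ from other genes. The 4 that rose at all 4 times were Slc1a3, Slc27a2, Slc38a1 and Slc39a14. Of these the 120 h call of Slc39a14 was lost without 120 h experiment 2 (adjusted p = 0.0949 by edgeR) or without 2iL experiment 1 (adjusted p = 0.0696). A further 14 fell at all 4 times, Slc30a2, Slc39a11, Slc52a3 and Slc38a4 among them. For 5 others of these 14 the 24 h call was lost without a single library: Slc7a1 without 2iL experiment 1 (adjusted p = 0.0637 by edgeR), Slc38a7 without 24 h experiment 1 or 3 (up to 0.0881), and Slc6a6, Slc44a1 and Slc38a10 without any 1 of 4, 5 and 18 libraries (up to 0.125, 0.173 and 0.195). A further 4 genes, Slc20a1, Slc29a3, Slc4a7 and Slc5a11, rose at one time and fell at another. The 120 h fall of Slc20a1 was lost without 2iL experiment 2 (adjusted p = 0.0740 by edgeR), and the 48 h rise of Slc5a11 without the same library (adjusted p = 0.0624 by edgeR).

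**Figure D1:**
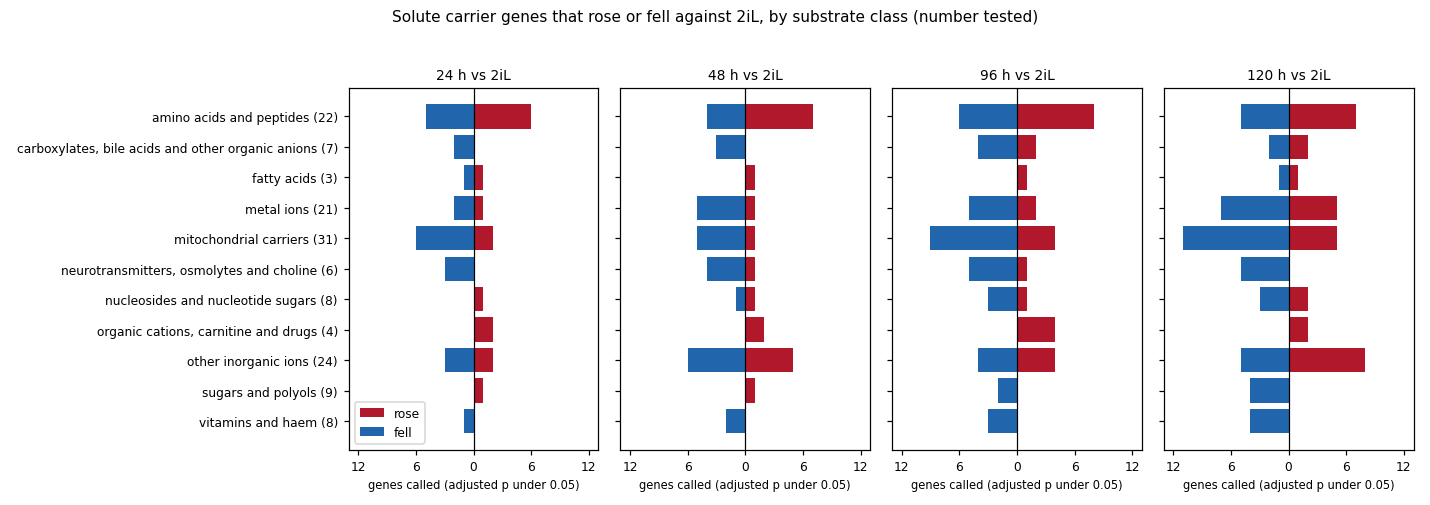
Number of genes of each substrate class that rose or fell against 2iL at 24, 48, 96 and 120 h (edgeR adjusted p under 0.05). The organic cation class has rises only, and the vitamin and haem class falls only, at these times.

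**Figure D2:**
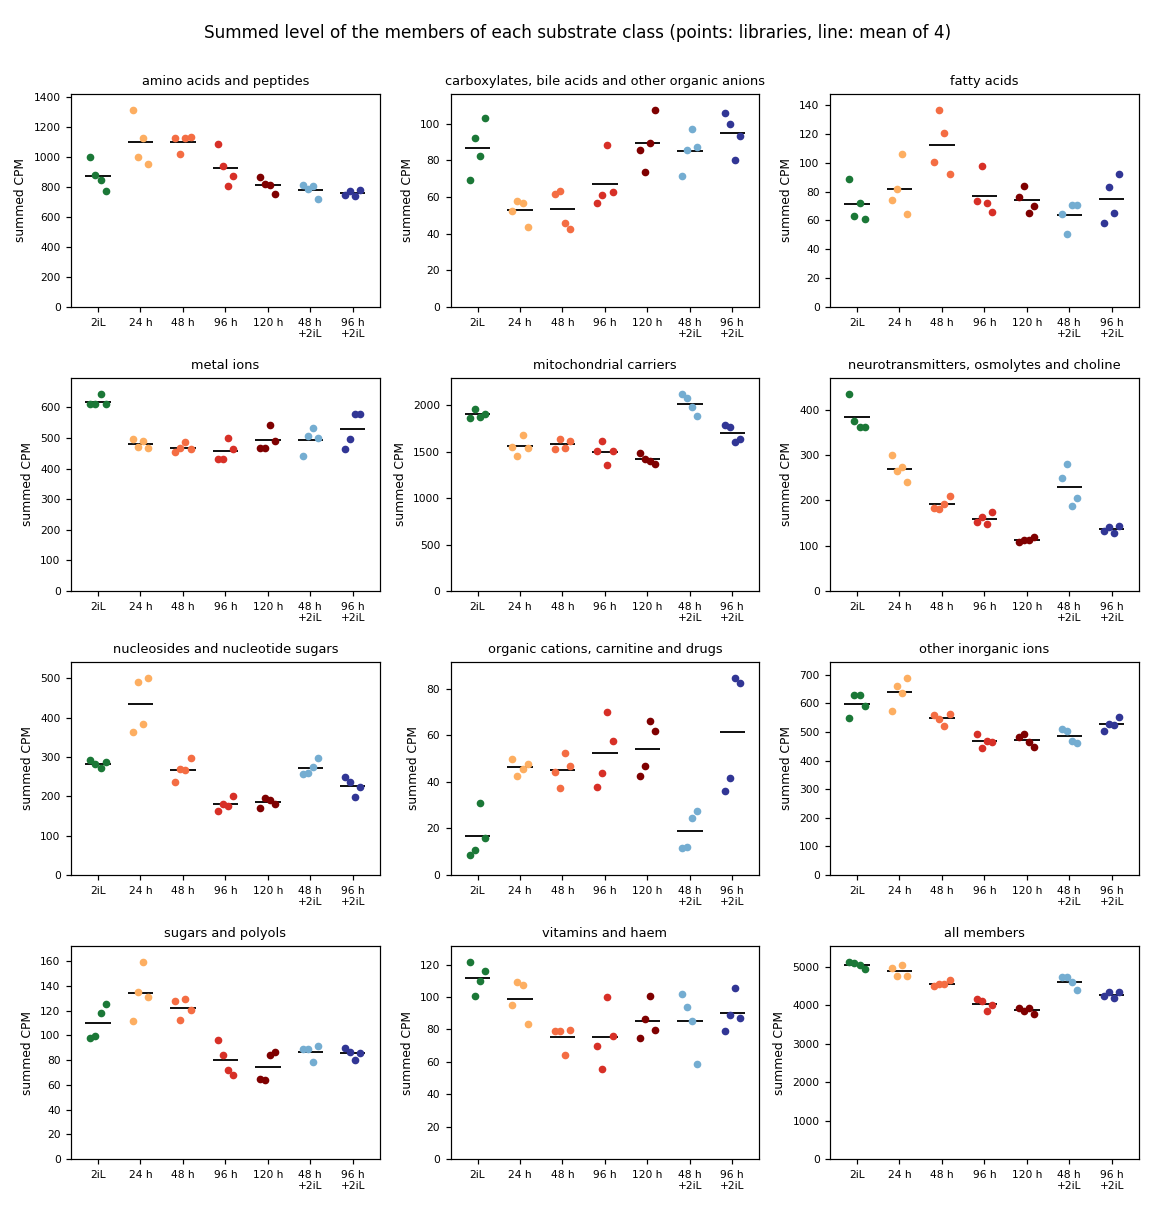
Summed CPM of the members of each class and of all members in every library (points) with the group mean (line, 4 libraries). The neurotransmitter, osmolyte and choline class runs from 384 CPM in 2iL down to 113.1 CPM at 120 h, and the mitochondrial carriers are highest in 48 h + 2iL at 2016 CPM.

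The genes were spread over 20 chromosomes, with 16 on chromosome 2, and only 3 pairs lay within 100 kb of each other. One pair joins genes of the same class, Slc38a1 and Slc38a2 at chr15:96571418-96699730 (GRCm38), 44479 bases apart. Slc38a1 was highest at 120 h, whereas Slc38a2 was highest at 48 h.

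Amino acid and peptide transporters held the largest group of early rises. Of 22, 6 rose and 5 fell at 24 h, 7 rose and 4 fell at 48 h, 8 rose and 6 fell at 96 h, and 7 rose and 5 fell at 120 h, and 17 changed across the groups. Slc38a2, a sodium-coupled carrier of alanine, glutamine and other small neutral amino acids, was at 179, 143, 192 and 146 CPM in 2iL and at 466, 394, 453 and 488 CPM at 48 h. No 48 h library was within the range of 2iL, and the log2 change was 1.44 ± 0.14 (adjusted p = 2.1e-09 by edgeR). It had already risen at 24 h, at 458, 295, 411 and 294 CPM, and was back to 191 ± 27.2 CPM at 120 h. After 48 h its return to 2iL gave 170, 152, 177 and 163 CPM, a fall of 1.44 ± 0.14 on the log2 scale that brought every library within the 2iL range. After 96 h the return lowered it from 278 ± 52.2 to 147 ± 15.3 CPM.

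The carriers of arginine and lysine described here did not share a direction. Slc7a3 was at 58.0, 27.5, 44.7 and 36.3 CPM in 2iL and 138, 108, 133 and 90.5 CPM at 24 h, a log2 change of 1.49 ± 0.36. At 96 h its libraries read 93.1, 80.8, 23.6 and 73.8 CPM, and after 24 h of 2iL 4.75, 14.4, 3.41 and 5.59 CPM, a fall of 3.21 ± 0.44 on the log2 scale. Thus the 96 h + 2iL libraries all lay below the lowest library of 2iL itself, and the change between those groups was a fall of 2.50 ± 0.45. Slc7a1, another arginine and lysine carrier, was at 199, 144, 146 and 109 CPM in 2iL. At 96 h it was at 29.8, 30.3, 19.2 and 26.4 CPM, a fall of 2.50 ± 0.24. It remained below 2iL in both return groups, at 75.4 ± 3.68 CPM in 48 h + 2iL and 46.3 ± 12.1 CPM in 96 h + 2iL. Slc7a7, the light chain of an exchanger that releases arginine and lysine in return for neutral amino acids and sodium, was at 2.90, 9.87, 8.64 and 6.81 CPM in 2iL and 41.3, 21.7, 27.1 and 37.3 CPM at 24 h. The groups did not overlap, the log2 change was 2.14 ± 0.34, and the 120 h mean was back to 6.94 ± 1.85 CPM.

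Slc3a2, the heavy chain that carries Slc7a5, Slc7a6 and Slc7a7 to the surface, was at 106 ± 23.9 CPM in 2iL and 164 ± 35.1 CPM at 24 h. Its rise of 0.62 ± 0.17 was lost without 24 h experiment 1, at 0.50 (adjusted p = 0.0525 by edgeR). Slc7a5, the large neutral amino acid light chain, was called at no time, with 21.8 ± 12.8 CPM in 2iL and 18.8 to 25 CPM as group means elsewhere. Of 10 genes for heavy chains of this kind and their light-chain partners, 4 had enough counts for a test, Slc3a2 and Slc7a7 rose at 24 h and none was called at 120 h. The cystine and glutamate exchanger Slc7a11 reached a mean of 2.06 CPM at most and is no member.

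Carriers of glutamate, glutamine, serine and glycine included several rises that were present at 120 h. Slc1a3, the glutamate and aspartate transporter of radial glia and astrocytes, was at 1.93, 2.15, 2.25 and 0.568 CPM in 2iL, 20.2, 10.9, 21.4 and 12.9 CPM at 48 h and 33.2, 23.4, 22.1 and 33.0 CPM at 120 h. Its log2 change grew from 2.13 ± 0.39 at 24 h to 3.92 ± 0.34 at 120 h (adjusted p = 4.1e-11 by edgeR). The return of 2iL lowered it after 48 h, to 7.04 ± 1.52 CPM, but it was at 25.4 ± 4.58 CPM in 96 h + 2iL, beside 27.3 ± 5.60 CPM at 96 h. Slc38a1, a glutamine carrier that neurons use, went from 42.5, 45.1, 23.7 and 25 CPM in 2iL to 127, 144, 130 and 146 CPM at 120 h, a rise of 2.00 ± 0.19. Slc1a4, a neutral amino acid exchanger with a role in serine supply to neurons, rose by 1.61 ± 0.36 at 120 h, and Slc6a9, a glycine transporter, by 1.90 ± 0.43. Slc1a5, the glutamine exchanger of many proliferating cells, went the other way, from 52.3 ± 3.47 to 27.1 ± 7.44 CPM, a fall of 0.94 ± 0.20. Among 12 genes of glutamate and glutamine handling, 7 were tested. In that list 4 rose and 1 fell at 24 h and at 48 h, 4 rose and 2 fell at 96 h, and 3 rose and 2 fell at 120 h. Glud1, the enzyme that feeds glutamate into the citric acid cycle, fell by 1.26 ± 0.15.

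Other amino acid carriers fell early. Slc38a4, a carrier of neutral amino acids, was at 62.8, 95.3, 62.0 and 77.2 CPM in 2iL and 15.6, 15.8, 14 and 14.1 CPM at 48 h, a fall of 2.31 ± 0.25. The return after 48 h brought 21.7, 29.0, 53.6 and 47.9 CPM, above every 48 h library and below every 2iL library. Slc38a7, a lysosomal glutamine carrier, fell by 1.44 ± 0.35 at 48 h, and Slc38a10 by 0.85 ± 0.16 at 120 h. Slc43a1, a carrier of branched-chain amino acids, was at 0 to 4.88 CPM in 2iL and at 9.85, 8.89, 8.55 and 7.97 CPM at 48 h, a rise of 2.30 ± 0.60. Slc15a2, which takes up small peptides, was at 2.07, 2.96, 1.22 and 2.45 CPM at 48 h and 5.50, 11.7, 14.8 and 11.8 CPM at 96 h, and rose by 2.29 ± 0.51 between these times. Of the 5 genes of the class not described so far 1 was called at 120 h, Slc43a2, a rise of 1.03 that was lost without 2iL experiment 3 (adjusted p = 0.0672 by edgeR).

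A list of 10 amino acid transporters known as targets of ATF4, the transcription factor of the amino acid response, gave no single direction. Of 9 tested, 3 rose and 1 fell at 24 h, 4 rose and 1 fell at 48 h, and 3 rose and 2 fell at 120 h. Slc38a2, Slc7a3 and Slc3a2 were the 3 that rose at 24 h, and Slc7a1 fell, though without 2iL experiment 1 that fall was 0.64 on the log2 scale (adjusted p = 0.0637 by edgeR).

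The promoter sequences of members were searched for short cores, including those of ATF4 and of the metal response. A link of these cores to the changes of this list or of the metal carriers below was not tested. RefSeq (GRCm38.p6) gave 150 promoter windows of 300 bases, 250 before and 50 after the start, for 109 of the 144 genes. The core bound by ATF4, TGATGNAA on either strand, was in 3.33% of these windows and 3.97% of all 32851 windows, and its 4 member genes were Slc1a4, Slc50a1, Slc7a7 and Slc9a9. The core of the metal response element, TGCGCNC, was in 26% of member windows and 15.4% of all. Its 35 member genes included metal carriers such as Slc30a1 and genes of other classes such as Slc25a3, Slc29a1 and Slc4a4. A core for TCF and LEF factors, CTTTGAT, was in 4% against 3.73%, and the lysosomal CLEAR core, TCACGTGA, in 2.00% against 0.974%. Shown are the 250 bases before the start for Slc7a7, Slc50a1 and Slc9a9, which hold the ATF4 core and moved in different ways, and for Slc39a11, a zinc carrier with the metal core close to its start. Capitals mark the cores, and a match is a description of the letters, not of binding. Slc7a7 lies at chr14:54417945-54418194, Slc50a1 at chr3:89270571-89270820 and Slc39a11 at chr11:113650093-113650342, each read on the minus strand, and Slc9a9 at chr9:94669642-94669891 on the plus strand.
Slc7a7: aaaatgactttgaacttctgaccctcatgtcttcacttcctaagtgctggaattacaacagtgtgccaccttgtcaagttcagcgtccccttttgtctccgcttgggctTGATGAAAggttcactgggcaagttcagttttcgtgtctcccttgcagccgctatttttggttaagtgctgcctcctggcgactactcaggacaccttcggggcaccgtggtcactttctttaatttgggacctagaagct
Slc50a1: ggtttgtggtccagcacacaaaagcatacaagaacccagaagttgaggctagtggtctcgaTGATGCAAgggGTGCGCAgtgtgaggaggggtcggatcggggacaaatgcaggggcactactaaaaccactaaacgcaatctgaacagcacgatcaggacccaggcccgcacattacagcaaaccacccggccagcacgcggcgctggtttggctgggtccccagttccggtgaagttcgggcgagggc
Slc9a9: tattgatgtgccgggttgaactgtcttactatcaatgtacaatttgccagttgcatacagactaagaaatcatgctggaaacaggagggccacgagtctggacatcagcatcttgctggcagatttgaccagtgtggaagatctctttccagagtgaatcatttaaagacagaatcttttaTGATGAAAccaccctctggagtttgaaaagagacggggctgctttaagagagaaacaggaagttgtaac
Slc39a11: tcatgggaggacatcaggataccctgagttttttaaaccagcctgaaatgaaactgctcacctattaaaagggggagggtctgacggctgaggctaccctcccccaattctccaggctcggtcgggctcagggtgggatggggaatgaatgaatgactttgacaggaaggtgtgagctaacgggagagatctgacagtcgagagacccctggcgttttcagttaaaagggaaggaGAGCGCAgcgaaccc
In Slc7a7, for 1 of its 5 RefSeq promoters, the ATF4 core starts 141 bases before the start of transcription. A second match to it there begins at the last base shown and runs past the start. In Slc9a9 it starts 69 bases before. In Slc50a1 it starts 189 bases before and the metal core 178 bases before, the latter on the other strand. In Slc39a11, for 1 of its 2 RefSeq promoters, the metal core, on the other strand, is 15 bases before the start.

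The fatty acid class had 3 expressed genes of 6, and 2 of them changed across the groups. Slc27a2, a transporter and activating enzyme of very long chain fatty acids known from liver and kidney (chr2:126552407-126588243), was at 0.966, 2.15, 3.01 and 2.84 CPM in 2iL. At 24 h it was at 36.5, 30.6, 46.6 and 44.2 CPM and at 48 h at 43.5, 55.8, 66.5 and 49.7 CPM, each library more than any in 2iL. The log2 changes were 4.09 ± 0.56 and 4.54 ± 0.55 (adjusted p = 8.6e-08 at 48 h by edgeR). At 120 h it was at 27.2, 26.3, 2.25 and 7.59 CPM, so experiment 3, which had the lowest naive and highest neural progenitor marker sums at that time, was within the 2iL range. The return of 2iL lowered it by 2.46 ± 0.45 after 48 h and by 2.36 ± 0.49 after 96 h. Slc27a4, the most widely expressed member of the family, was called at no time, with group means from 28.7 to 54.3 CPM, and Slc27a3 was at 25.2 ± 5.45 CPM in 2iL and 13.5 ± 4.93 CPM at 120 h. Its fall of 0.89 ± 0.29 there was lost without 120 h experiment 3, at a log2 change of -0.72 (adjusted p = 0.0548 by edgeR).

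Genes for 2 of the steps by which fatty acids enter mitochondria fell. Slc25a20, the carrier that exchanges acylcarnitine for carnitine, was at 39.6, 26.2, 21.4 and 35.8 CPM in 2iL and 6.22, 4.44, 6.10 and 7.36 CPM at 48 h, a fall of 2.34 ± 0.38. Cpt1a, the outer membrane enzyme that makes the acylcarnitine, fell from 67.5 to 2.92 CPM at 120 h, by 4.46 ± 0.44. Cpt2, the inner membrane enzyme, rose by 1.09 ± 0.34 at 120 h. Of 16 tested genes for fatty acid uptake and activation, 2 rose and 5 fell at 24 h and 6 rose and 4 fell at 120 h. The acyl-CoA synthetases Acsl4 and Acsl5 and the fatty acid binding protein Fabp5 were among the rises, and Fabp3 fell by 2.85 ± 0.36.

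Metal ion carriers both rose and fell. Of 21, 1 rose and 2 fell at 24 h, 1 rose and 5 fell at 48 h, 2 rose and 5 fell at 96 h, and 5 rose and 7 fell at 120 h, and 13 changed across the groups. Slc30a2, which moves zinc out of the cytosol into vesicles, was at 91.8, 100, 98.1 and 80.1 CPM in 2iL, 20.7, 33.0, 25.8 and 26.9 CPM at 24 h and 4.48, 4.97, 0.901 and 2.23 CPM at 120 h. The fall grew from 1.79 ± 0.35 to 4.85 ± 0.44 on the log2 scale (adjusted p = 1.2e-10 at 120 h by edgeR). With 2iL back after 48 h it was at 19.7, 43.7, 48.2 and 56.3 CPM, a rise of 1.39 ± 0.37, whereas after 96 h it read 11.4, 17.3, 0.487 and 8.69 CPM and was not called against 96 h. Slc39a11, a zinc importer of the ZIP family, was at 60.9, 72.1, 51.9 and 73.2 CPM in 2iL and 10.4, 11.4, 15.3 and 11.7 CPM at 48 h. It fell by 2.41 ± 0.25 and rose by 1.25 ± 0.26 with 2iL after 48 h. Slc39a14, which brings zinc, manganese and iron into the cell, ran the other way, from 0.966, 3.00, 3.76 and 3.41 CPM in 2iL to 28.5, 28.6, 17.1 and 24.5 CPM at 48 h. Its rise was 3.11 ± 0.43, and the return of 2iL lowered it by 2.34 ± 0.40 after 48 h and 1.80 ± 0.42 after 96 h, into the range of 2.06 to 6.83 CPM.

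Slc39a4, the zinc importer of the gut, was not called at the early times, with 34.4 ± 5.81 CPM in 2iL and 36.6 ± 5.67 CPM at 48 h, and was at 14.9, 15.4, 4.05 and 7.59 CPM at 120 h, a fall of 1.71 ± 0.39. Slc30a4, which loads vesicles with zinc, rose by 2.39 ± 0.52 at 120 h, from 2.29 ± 1.29 to 12.2 ± 2.92 CPM. Slc30a1, the zinc exporter of the plasma membrane and a target of the zinc sensor MTF1, was at 28.4 ± 12.3 CPM in 2iL and 13.4 ± 3.70 CPM at 120 h. Its fall of 1.07 ± 0.32 was lost without 2iL experiment 3, at a log2 change of -0.81 (adjusted p = 0.0533 by edgeR). Of the 20 zinc genes tested, 2 rose and 1 fell at 24 h. At 120 h 6 rose and 6 fell, while 24.6% of all genes rose and 22.6% fell. The falls included the metallothionein Mt2, which binds zinc and copper (by 2.51 ± 0.51), Mt1 (by 1.88 ± 0.46) and Mtf1 (by 1.15 ± 0.22). The rises included 3 carriers whose calls depended on single libraries, as did the 120 h call of Slc39a14 above. Slc39a6, a ZIP importer, was at 23.2, 40.4, 38 and 47.7 CPM in 2iL and 39.5, 63.6, 80.6 and 47.3 CPM at 120 h, which overlapped. Its rise of 0.63 ± 0.24 was lost without 120 h experiment 2 or 3 or 2iL experiment 1 (adjusted p up to 0.174 by edgeR, without 120 h experiment 3). That of Slc39a10, also a ZIP importer, was 0.43 ± 0.17 and was lost without 120 h experiment 3 or 4 or 2iL experiment 2 or 4 (adjusted p up to 0.155 by edgeR, without 120 h experiment 3). That of Slc30a9 was 0.65 ± 0.28 and was lost without any 1 of 10 libraries (adjusted p up to 0.164 by edgeR, without 2iL experiment 2).

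Several magnesium and iron carriers fell. Slc41a1, a magnesium transporter, was at 13, 7.30, 16.5 and 19.9 CPM in 2iL and 4.15, 3.95, 3.66 and 3.68 CPM at 48 h, a fall of 1.85 ± 0.35, and 2iL after 48 h raised it by 1.31 ± 0.36. Slc11a1, the iron and manganese carrier of phagosomes, was at 6.28, 8.59, 2.25 and 2.27 CPM in 2iL and had 1 count in all at 120 h, against 43 in 2iL. The ratio of pooled counts was 44.6 (exact 95% interval 7.59 to 1800, counting error only). Slc11a2, the iron importer of gut and endosomes, fell by 0.92 ± 0.22 at 120 h. Of the mitoferrins, which bring iron into mitochondria, Slc25a28 fell by 1.12 ± 0.27 at 120 h, and Slc25a37 was at 11 ± 2.91 CPM in 2iL and 21.6 ± 6.80 CPM at 96 h, a rise of 0.97 ± 0.30. None of the 9 metal carriers not described here was called at 120 h. Of 10 tested iron genes 1 rose and 4 fell at 120 h, and the transferrin receptor Tfrc fell at all 4 times, by 1.30 ± 0.17 at 120 h.

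**Figure D3:**
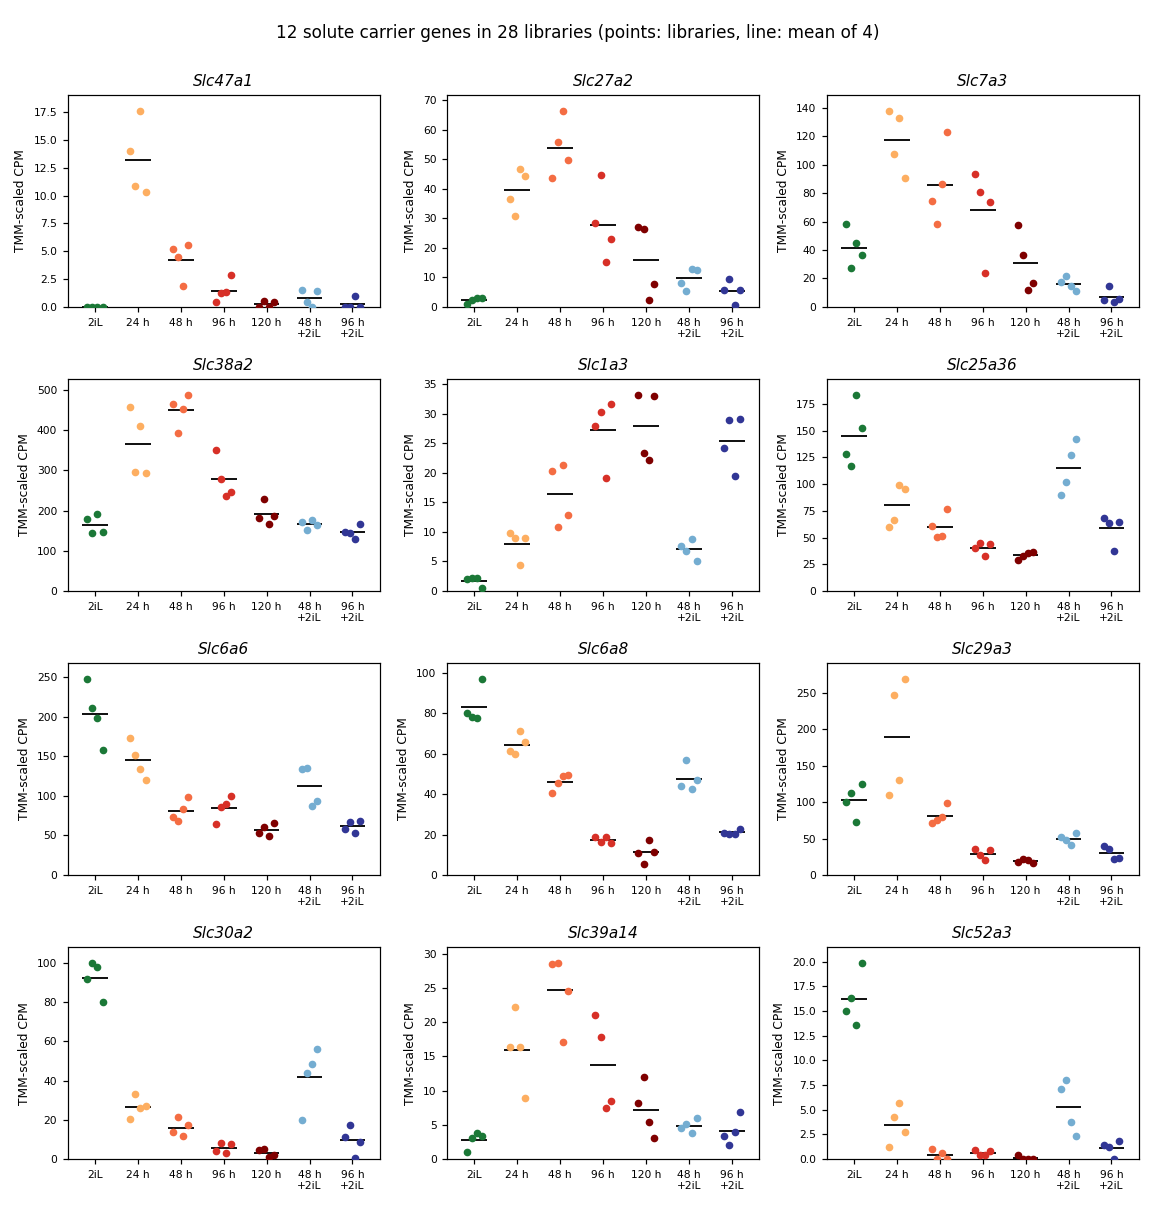
CPM of 12 transporters in every library (points) with the group mean (line) for the 7 groups. Slc47a1 is at 0 in the 4 libraries of 2iL and between 10.4 and 17.6 CPM at 24 h, and Slc30a2 falls from 92.5 CPM in 2iL to 3.14 CPM at 120 h.

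Mitochondrial carriers were the largest class and lost level on withdrawal. Of 31, 2 rose and 6 fell at 24 h, 1 rose and 5 fell at 48 h, 4 rose and 9 fell at 96 h, and 5 rose and 11 fell at 120 h. Over all genes 8.29% fell at 24 h, 13.2% at 48 h, 19.2% at 96 h and 22.6% at 120 h. The summed level of the class went from 1902 ± 46.2 CPM in 2iL to 1420 ± 51.7 CPM at 120 h. Slc25a36, which carries pyrimidine nucleotides, was at 128, 117, 183.7 and 152 CPM in 2iL and 28.7, 32.8, 35.6 and 36.6 CPM at 120 h, a fall of 2.12 ± 0.20 (adjusted p = 2.3e-10 by edgeR). It was at 89.5, 102, 127 and 142 CPM in 48 h + 2iL, which overlapped 2iL, and had risen by 0.95 ± 0.19 against 48 h. Slc25a39, the glutathione carrier, was at 326, 379, 314 and 353 CPM in 2iL and 175, 160, 204 and 180 CPM at 120 h, a fall of 0.93 ± 0.10. Slc25a48, a carrier tied to choline, had an uneven starting level of 8.21, 8.59, 56 and 27.2 CPM in 2iL and was at 0.436 CPM or less in every 96 h library. The ratio of pooled counts, 234 against 2, was 125 (exact 95% interval 34.2 to 1040).

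The adenine nucleotide carriers exchange mitochondrial ATP for ADP, and Slc25a4 gave the highest levels of its profile in the return groups. It was at 242, 292, 166 and 218 CPM in 2iL, 129, 120, 122 and 94.0 CPM at 24 h and 519, 506, 384 and 302 CPM in 48 h + 2iL. All 48 h + 2iL libraries exceeded all 2iL libraries, with log2 changes of 1.21 ± 0.18 from 48 h and 0.90 ± 0.18 from 2iL, and 96 h + 2iL rose by 0.69 ± 0.18 over 2iL. Slc25a3, the phosphate carrier that ATP synthesis needs, rose by 0.43 ± 0.12 from 48 h to 48 h + 2iL, from 329 ± 34.0 to 444 ± 47.3 CPM. Slc25a5, a second adenine nucleotide carrier, was at 47.9 ± 8.77 CPM in 2iL and was called at no time against 2iL. Alignments at more than 1 place, 52.3% to 60.1% of those listed, were not counted, so the levels of genes with near copies such as Slc25a5 and Slc25a3 are uncertain.

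Calcium-regulated carriers moved in different directions. Slc25a12 and Slc25a13 exchange aspartate for glutamate in the malate-aspartate shuttle, and both fell: Slc25a12 from 12.6, 22.8, 22.2 and 13.1 CPM in 2iL to 4.48, 1.49, 5.40 and 2.23 CPM at 120 h, by 2.34 ± 0.36. Slc25a13 fell from 185 ± 26.8 to 95.1 ± 4.18 CPM, by 0.96 ± 0.15, and neither was called at 24 or 48 h. Slc25a23 and Slc25a24 exchange ATP-magnesium for phosphate, and both rose. Slc25a24 was at 2.42, 6.01, 2.25 and 0.568 CPM in 2iL and 22, 23.4, 13.1 and 14.7 CPM at 120 h, a rise of 2.63 ± 0.47, and Slc25a23 went from 10.02 ± 3.50 to 29.3 ± 0.423 CPM, a rise of 1.55 ± 0.27. Of the other 18 carriers, Slc25a25, which also exchanges ATP-magnesium for phosphate, was not called at 120 h. Among these 18, 2 rose at 120 h, Slc25a46 by 0.76 and Slc25a51 by 0.82, and 3 fell. Of these falls, the calls of Slc25a1 and Slc25a15 were lost without any 1 of several libraries, with adjusted p up to 0.0923 (without 2iL experiment 4) and 0.161 (without 120 h experiment 3) by edgeR.

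Most transporters of neurotransmitters, osmolytes and choline fell, with 3 of 6 down at 24 h, 4 at 48 h and 5 at 96 and 120 h. Slc6a8, the creatine transporter, was at 80.2, 78.1, 77.8 and 97.1 CPM in 2iL, 40.4, 45.4, 48.8 and 49.7 CPM at 48 h and 10.8, 5.46, 17.1 and 11.6 CPM at 120 h. Groups did not overlap, and the fall at 120 h was 2.87 ± 0.20 (adjusted p = 2.1e-13 by edgeR). Slc6a6, the taurine transporter, was at 248, 211, 199 and 157 CPM in 2iL and 53.0, 61.1, 49.5 and 65.6 CPM at 120 h, a fall of 1.83 ± 0.17. Slc6a7, a proline transporter of neurons, was at 15.9, 15.9, 17.3 and 23.9 CPM in 2iL and had 1 count in the 4 libraries of 120 h. Pooled over libraries its ratio was 164 (exact 95% interval 29.0 to 6520). Slc44a1, a choline transporter, was at 54.6, 30.9, 33.4 and 36.9 CPM in 2iL, 15, 15.3, 11.6 and 6.13 CPM at 48 h and 33.9, 43.3, 28.7 and 36.3 CPM in 48 h + 2iL, which overlapped 2iL. It fell by 1.67 ± 0.28 and rose again by 1.54 ± 0.28. Slc44a2, its relative, was the exception in the class, as it rose by 0.70 ± 0.18 at 96 h, and 2iL after 48 h lowered it by 1.04 ± 0.19. Slc17a9, which fills vesicles with ATP, fell by 3.20 ± 0.63 at 120 h.

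Among genes for GABA, a transmitter that the same families carry, the 4 transporters listed were under 5 CPM in every group. Gad1, the enzyme that makes GABA, was at 7.68 ± 5.03 CPM in 2iL, at 0 in the 4 libraries of 48 h and at 16.7 ± 7.76 CPM in 48 h + 2iL. It fell at all 4 times and rose in both returns. Of the 7 genes listed 2 were tested, and 1 rose and 1 fell at 96 h and at 120 h.

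Nucleoside carriers peaked at 24 h, where the class summed to 434.5 ± 70.8 CPM against 283.2 ± 8.32 CPM in 2iL and 184.7 ± 11.3 CPM at 120 h. Slc29a3, a lysosomal and mitochondrial nucleoside transporter, made most of that peak, with 110, 248, 130 and 270 CPM at 24 h against 100, 113, 72.9 and 124 CPM in 2iL. These groups overlapped, and the log2 change was 0.89 ± 0.22. At 120 h it was at 18.3, 21.4, 20.3 and 16.1 CPM, a fall of 2.43 ± 0.25 from 2iL. Slc29a1, the nucleoside transporter of the plasma membrane, was at 77.3, 56.7, 61.2 and 44.9 CPM in 2iL, 29.6, 22.2, 19.5 and 36.2 CPM at 48 h and 54.1, 43.7, 74 and 78.2 CPM in 48 h + 2iL. It was 1 of the genes that responded to 2iL at both times, rising by 1.22 ± 0.26 after 48 h and 1.39 ± 0.26 after 96 h. Slc28a1, which concentrates pyrimidine nucleosides with sodium, was at 30.1, 45.4, 48.8 and 59.5 CPM at 48 h and 3.73, 7.45, 0.450 and 1.79 CPM at 120 h, and fell by 2.85 ± 0.60 from 2iL to 120 h. Of the nucleotide sugar carriers of the Golgi, Slc35a4 rose by 0.59 at 120 h and Slc35a2 by 1.2, a call lost without 2iL experiment 2 (adjusted p = 0.0651 by edgeR), and Slc35a1 and Slc35a3 were not called there.

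All 4 expressed genes for organic cations, carnitine and drugs changed across the groups, and none of them fell against 2iL at any time. Of these, 2 rose at 24 h, 2 at 48 h, 4 at 96 h and 2 at 120 h. Slc47a1, an exporter of organic cations in exchange for protons in kidney and liver (chr11:61343401-61378345), was at 0 in the 4 libraries of 2iL and at 14, 10.8, 17.6 and 10.4 CPM at 24 h. Against a limit of 3 counts over the 2iL libraries its level at 24 h was at least 38.5-fold higher, and that at 48 h at least 12.6-fold higher (adjusted p = 1.8e-06 at 24 h by edgeR). Only the 24 h group brought this gene over the 5 CPM minimum, so its 24 h contrast is not independent of how it was chosen. The level of Slc47a1 then declined, to 5.18, 4.44, 1.83 and 5.52 CPM at 48 h and 0 to 0.497 CPM at 120 h. At 96 h it was still called above 2iL, with 14 counts over the group, at least 4.37-fold higher by the same limit. Slc29a4, a monoamine transporter, was at 3.87, 6.01, 11.7 and 10.2 CPM in 2iL and 32.1, 25.2, 34.2 and 33.1 CPM at 48 h, a rise of 1.96 ± 0.32. The other pair rose late. Slc22a23, an orphan of the organic ion family, was at 2.90, 1.72, 11.7 and 0.568 CPM in 2iL and 22.8, 22.9, 28.8 and 29.5 CPM at 120 h, a rise of 2.50 ± 0.47, and Slc22a17, which serves as a receptor for the iron-binding lipocalin, rose by 1.83 ± 0.48.

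In the carboxylate and organic anion class of 7, none rose and 2 fell at 24 h, none rose and 3 fell at 48 h, 2 rose and 4 fell at 96 h, and 2 rose and 2 fell at 120 h. Slc16a9, a member of the monocarboxylate family linked to carnitine, was at 5.80, 10.7, 13.2 and 11.9 CPM in 2iL. At 48 h it was at 0 in the 4 libraries, at least 25.4-fold lower against a limit of 3 counts over the group. Its 2iL mean lay above the 5 CPM minimum, so this contrast may not be independent of how it was chosen. With 2iL back after 48 h it was at 2.53, 3.36, 5.82 and 7.91 CPM, at least 11.9-fold higher than at 48 h. Slc16a13 rose by 1.95 ± 0.41 at 120 h, from 3.80 ± 2.04 to 15.3 ± 4.07 CPM, and Slc10a7 fell by 0.91.

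Carriers of other inorganic ions changed with different timing. Of 24 tested, 2 rose and 3 fell at 24 h, 5 rose and 6 fell at 48 h, and 8 rose and 5 fell at 120 h. Slc20a1, a sodium and phosphate importer, was at 96.1, 161, 129 and 119 CPM in 2iL, 227, 291, 296 and 271 CPM at 24 h and 89.9, 108, 94.6 and 84.4 CPM at 120 h. Every 24 h library exceeded every 2iL library, with a rise of 1.10 ± 0.13. Slc5a5, the iodide transporter of the thyroid, was at 0, 0, 0.376 and 0.568 CPM in 2iL and 18.7, 13.8, 11 and 4.29 CPM at 48 h, and at 14.7, 27.5, 2.18 and 12.2 CPM at 96 h. The pooled ratio at 96 h was 63.3 (exact 95% interval 17.2 to 528), and 2iL lowered it by 2.98 ± 0.78 after 48 h and 3.48 ± 0.80 after 96 h.

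Among bicarbonate carriers, which set cell pH, different genes of family 4 rose and fell. Slc4a5, a sodium and bicarbonate cotransporter, was at 114, 104, 121 and 75.0 CPM in 2iL, 50.3, 52.3, 42.7 and 55.8 CPM at 48 h and 2.98, 8.94, 2.25 and 8.48 CPM at 120 h, a fall of 4.21 ± 0.31 (adjusted p = 9.0e-13 by edgeR). Slc4a11, which carries protons or hydroxide and water, went from 32.9, 33.5, 33.1 and 35.2 CPM to 5.97, 3.97, 1.35 and 3.13 CPM, a fall of 3.17 ± 0.36. Slc4a4, a second sodium and bicarbonate cotransporter, was at 0.483, 1.29, 0.376 and 0.568 CPM in 2iL and 12.3, 7.45, 10.8 and 9.82 CPM at 120 h, a rise of 3.78 ± 0.52. The chloride and bicarbonate exchanger Slc4a3 rose by 2.39 ± 0.47 at 120 h. Slc4a7, also sodium-coupled, was at 60.1 ± 12.6 CPM in 2iL, fell by 0.81 ± 0.19 at 24 h and was 0.70 ± 0.18 above 2iL at 120 h, and the return of 2iL raised it at both times, by 0.75 ± 0.18 and 0.73 ± 0.17.

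Potassium, proton and calcium exchangers were among the remaining calls. Slc12a7, a potassium and chloride cotransporter, was at 42.5, 29.2, 44.7 and 51.7 CPM in 2iL and 18.2, 18.4, 13.9 and 18.7 CPM at 24 h, a fall of 1.27 ± 0.23. Slc9a5, a sodium and proton exchanger of neurons, rose by 2.62 ± 0.53 at 120 h. Slc9a9, the endosomal exchanger with the ATF4 core shown above, was at 0 in the 4 libraries of 48 h. In 48 h + 2iL it was at 3.54, 3.36, 11.6 and 7.45 CPM, at least 15.9-fold higher against a limit of 3 counts over the group. Its 48 h + 2iL mean lay above the 5 CPM minimum, so this contrast may not be independent of how it was chosen. Slc24a5, a calcium exchanger of pigment granules, could not be tested for low counts: it had 68 counts in 2iL and 0 at 24 h, at least 17.5-fold lower by the same limit. Only the 2iL group brought it over the 5 CPM minimum, so this contrast is not independent of how it was chosen. Slc20a2, a second phosphate importer, rose by 1.33 at 120 h. The calls of 3 more genes there did not hold: the rises of Slc24a3 and Slc8a2 reached adjusted p of 0.119 (without 2iL experiment 2) and 0.111 (without 2iL experiment 4), and the fall of Slc9a8 was lost without 2iL experiment 3 (adjusted p = 0.113 by edgeR).

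The sugar and polyol class had 9 genes, without the glucose transporters left out by name. In it 1 gene rose at 24 h and at 48 h, and 2 fell at 96 h and 4 at 120 h. Over all genes 19.2% fell at 96 h and 22.6% at 120 h. Slc5a11, a sodium-coupled inositol transporter, was at 11.1, 7.30, 16.9 and 14.8 CPM in 2iL and at 37.3, 33.1, 37.9 and 31.3 CPM at 48 h. That rise of 1.47 ± 0.46 was lost without 2iL experiment 2, at 1.27 (adjusted p = 0.0624 by edgeR). At 120 h it was at 5.22, 1.49, 0.450 and 2.68 CPM, a fall of 2.26 ± 0.59. Slc37a1, a glucose-6-phosphate and phosphate exchanger of the endoplasmic reticulum, was at 6.76, 5.58, 7.51 and 10.2 CPM in 2iL and 0.746, 0.497, 0 and 0.447 CPM at 120 h, a fall of 3.93 ± 0.67. Slc50a1, a sugar carrier of the Golgi whose promoter is shown above, fell by 1.81 ± 0.52 at 120 h. The fourth fall there, of Slc45a4, was lost without 2iL experiment 3 (adjusted p = 0.102 by edgeR), 2iL experiment 4 or 120 h experiment 3.

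Vitamin and haem carriers fell or were not called at any time without 2iL: 1 fell at 24 h, 2 at 48 h, 3 at 96 h and 4 at 120 h. Slc52a3, a riboflavin transporter, was at 15, 16.3, 13.5 and 19.9 CPM in 2iL, 1.22, 4.24, 5.67 and 2.77 CPM at 24 h and had 1 count in all at 120 h. The pooled ratio of 2iL to 120 h was 145 (exact 95% interval 25.7 to 5780). With 2iL back after 48 h it was at 7.08, 7.99, 3.74 and 2.33 CPM, a rise of 3.49 ± 0.73. Slc5a6, which takes up biotin and pantothenate, was at 17.9, 17.6, 14.3 and 15.3 CPM in 2iL, 6.74, 4.94, 6.10 and 3.68 CPM at 48 h and 18.2, 12.2, 21.6 and 12.1 CPM in 48 h + 2iL. It fell by 1.58 ± 0.42 and rose again by 1.56 ± 0.42. Slc19a2, a thiamine transporter, fell by 2.16 ± 0.46 at 120 h, and the call of Slc23a2, which takes up vitamin C, was lost without 2iL experiment 3 (adjusted p = 0.0657 by edgeR), 120 h experiment 2 or 120 h experiment 4.

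**Figure D4:**
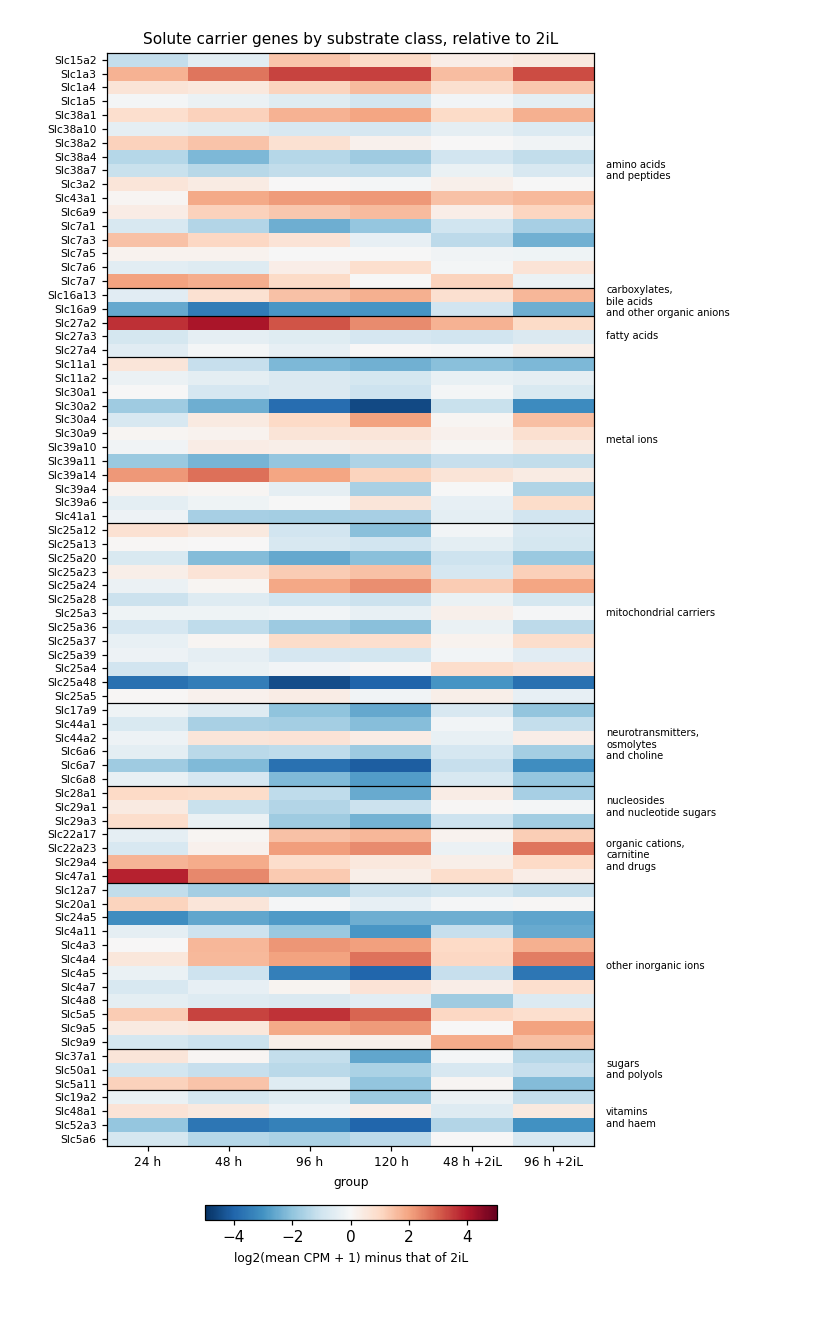
Log2(mean CPM + 1) of each group minus that of 2iL for 79 of the genes described here (rows, ordered by substrate class) in the 6 other groups (columns). Red is higher and blue lower than 2iL, and Slc1a3 is red at all times while Slc27a2 and Slc47a1 are reddest at 24 or 48 h.

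The steps between times placed these changes. From 24 to 48 h 8 genes rose and 10 fell, 5.59% and 6.99% against 3.47% and 3.10% of all genes. From 48 to 96 h 14 rose and 19 fell, 9.79% and 13.3% against 11.5% and 9.93%, while with library totals 16 rose and 15 fell. Slc4a5 fell by 2.54 ± 0.29 in that second step, and Slc6a8 fell by 1.40 ± 0.19. Without 96 h experiment 3 the 48 to 96 h step had 17 calls in place of 33, and without 48 h experiment 2 or 48 h experiment 3 the 24 to 48 h step had 9 in place of 18. From 96 to 120 h no member was called by edgeR, while 0.596% of all genes rose and 0.542% fell. The smallest adjusted p was 0.0502, 29 of 143 had an unadjusted p under 0.05, and DESeq2 called 3. With the experiment number as a replicate block 1 rose and 7 fell, and without 96 h experiment 3 there were 8 calls.

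Return to 2iL after 48 h gave more calls than return after 96 h. From 48 h to 48 h + 2iL 21 rose and 19 fell, 14.7% and 13.3% against 7.24% and 7.67% of all genes. From 96 h to 96 h + 2iL 7 rose and 7 fell, 4.90% and 4.90% against 4.02% and 5.23%. Without 96 h experiment 1 the second count was 9 in place of 14. The median log2 change was 0.10 after 48 h and 0.12 after 96 h for the transporters, and 0.00 for all genes in both. By class, mitochondrial carriers gave 5 rises and 3 falls after 48 h and 1 and 1 after 96 h, and metal ion carriers 4 and 1 after 48 h and 3 and 1 after 96 h. Slc38a2, Slc7a3, Slc27a2, Slc39a14 and Slc5a5 fell in both returns, and Slc25a4, Slc29a1 and Slc4a7 rose in both.

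Against cells never taken out of 2iL, 11 genes were higher and 19 lower in 48 h + 2iL, 7.69% and 13.3% against 6.14% and 5.49% of all genes. In 96 h + 2iL 30 were higher and 39 lower, 21% and 27.3% against 21.4% and 19.5%. Without 2iL experiment 1 or without 48 h + 2iL experiment 3 the first of these counts was 19 in place of 30. Genes well below 2iL after both returns included Slc38a4, by 0.96 ± 0.23 and 1.25 ± 0.23, Slc39a11, by 1.16 ± 0.23 and 1.25 ± 0.23, and Slc4a5, by 1.16 ± 0.24 and 3.72 ± 0.30. Slc1a3 was above it after both, by 1.94 ± 0.38 and 3.78 ± 0.34. Slc4a8, a sodium-driven chloride and bicarbonate exchanger, was lowest of all groups in 48 h + 2iL, at 9.10, 7.15, 2.08 and 4.19 CPM against 32.4, 21.5, 14.3 and 18.2 CPM in 2iL, a fall of 1.94 ± 0.38. Against 120 h, the same total time from the start, 96 h + 2iL had 5 genes higher and 1 lower, 3.50% and 0.699% against 1.28% and 1.34% of all genes. With the replicate block 8 were higher and 2 lower. Single libraries decided this count: it was 2 without experiment 2 of either group, 3 without experiment 1 of either group and 10 without 96 h + 2iL experiment 3.

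The response to 2iL itself was compared between the times, as the change after 96 h minus the change after 48 h. It differed for 5 transporters, 4 upward and 1 downward, 2.80% and 0.699% of those tested against 0.451% and 0.469% of all genes. Slc20a1 was at 190, 186, 185 and 218 CPM at 48 h and 136, 116, 112 and 122 CPM with 2iL, but at 146, 122, 115 and 105 CPM at 96 h and 131, 139, 114 and 137 CPM with 2iL, a difference of 0.78 ± 0.19 (adjusted p = 0.0354 by edgeR). Slc25a23 read 14.5, 13.3, 23.2 and 15.3 CPM and then 6.07, 6.31, 2.91 and 5.12 CPM after 48 h, and 23.4, 22.2, 23.1 and 33.7 CPM and then 15.7, 21, 35.5 and 24.2 CPM after 96 h, a difference of 1.60 ± 0.40 (adjusted p = 0.0423 by edgeR). In both genes no library of 48 h + 2iL reached the range of 48 h, whereas the 96 h and 96 h + 2iL libraries overlapped.

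Slc29a4 went from 31.2 ± 4.07 to 9.82 ± 5.21 CPM after 48 h and from 15.5 ± 2.58 to 16.9 ± 3.41 CPM after 96 h, a difference of 1.76 ± 0.44 (adjusted p = 0.0418 by edgeR). Slc48a1, a haem transporter of endosomes, went from 30.2 ± 4.28 to 13.4 ± 7.18 CPM and from 18.1 ± 4.12 to 30.4 ± 8.10 CPM, a difference of 1.91 ± 0.45 (adjusted p = 0.0323 by edgeR). Slc6a6 was the 1 downward case, from 80.5 ± 13.4 to 113 ± 25.6 CPM after 48 h and from 84.6 ± 14.8 to 61.3 ± 6.98 CPM after 96 h, a difference of -0.96 ± 0.24 (adjusted p = 0.0423 by edgeR). Each of these 5 calls was lost on leaving out any 1 of 10 to 15 of the 28 libraries, and none was left without 48 h experiment 3, without 96 h experiment 2 or without 96 h + 2iL experiment 4.

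**Figure D5:**
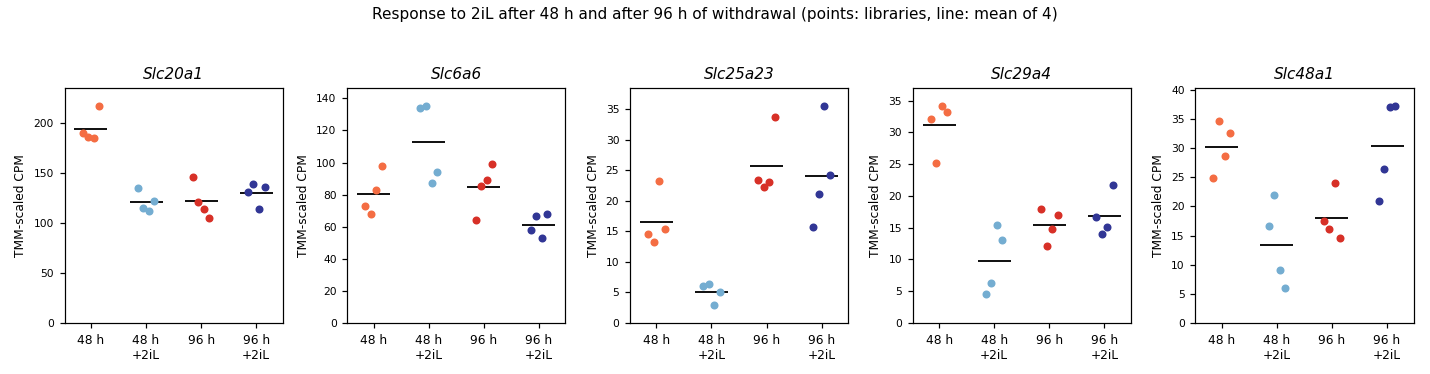
CPM of the 5 transporters whose response to 2iL differed between the times, in every library (points) with the group mean (line) at 48 h, 48 h + 2iL, 96 h and 96 h + 2iL. Slc25a23 is at 2.91 to 6.31 CPM in 48 h + 2iL and at 15.7 to 35.5 CPM in 96 h + 2iL.

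Among the transporters left out by name, Slc2a1 rose from 65.9 ± 15.8 CPM in 2iL to 317 ± 34.1 CPM at 120 h and the lactate exporter Slc16a3 rose from 13.4 ± 10.7 to 291 ± 10.7 CPM at 48 h, while Slc2a3 fell from 232 ± 48.1 to 29.6 ± 7.10 CPM at 48 h. Of 12 tested accessory proteins, which transporters need for surface delivery or for the sodium gradient, 3 rose and 5 fell at 120 h. Emb, a partner of monocarboxylate transporters, rose from 5.12 ± 1.57 to 167 ± 34.6 CPM at 96 h, and Atp1b1, a subunit of the sodium pump, fell from 309 ± 28.8 to 40.6 ± 14.4 CPM at 120 h.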

How the data were processed

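RNA of 28 libraries was measured by 3′ digital gene expression sequencing. Per the submitters' processing notes, bcl2fastq, STAR 2.6.0a and HTSeq were used with the mm10 build. The deposited files held whole-number counts per gene and library (31053 genes), and the authors also deposited a table of CPM values, counts divided by the gene counts of the library and scaled to a fixed total (30386 genes). The CPM columns equalled those computed from the counts in 28 of 28 libraries (tolerance 1e-06). Alignments listed as not unique were 52.3% to 60.1% of the entries, and those without a gene or with more than 1 gene 6.9% to 8.8%, and both were left out of library sizes and tests. Libraries held 13021 to 14923 detected genes, and pairs of replicates differed by a chi-square of 2.48 to 11.3 per gene, so none was counted as a repeat of another.

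Members were chosen on the deposited CPM values, and printed CPM values are scaled by TMM. A gene over 5 CPM in only 1 group was chosen through that group. Its contrasts with that group are then not independent of the choice. Counts were tested with edgeR 4.0.16 in R 4.3.3 (filterByExpr with a minimum count of 10, TMM, quasi-likelihood F test, 1 fit of the 7 groups, Benjamini-Hochberg adjustment over 11080 genes, threshold 0.05). Log2 changes are given ± SE and levels ± SD (n = 4). Intervals of pooled counts are exact and cover counting error only. The procedure was tested on simulated data. Alternatives were DESeq2 1.42.0, its size factors, library totals, no filter, fits of only the groups compared, other level cuts, each library left out, experiments 1, 2 and 4 alone (chosen after seeing the data), and the experiment as a replicate block.

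The labels give libraries of the same experiment the same number, and this was taken as pairing in the replicate block alternative only. The main fit had no term for the experiment. Same-numbered libraries correlated at -0.051 to 0.523 in their deviations from group means (median 0.129, over 0.1 in 53 of 84 pairs, 6267 genes), differently numbered ones at a median of -0.06, and 22 of 28 libraries correlated best with their own number.

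The members, substrate classes and gene lists were chosen with earlier results of these data known. Genes were named by rule: the markers Slc47a1 and Slc27a2, up to 5 rises and 5 falls per comparison among called genes with at least 10 CPM and groups that did not overlap, the 3 smallest p-values and the highest level per class, the 5 smallest p-values for the difference of responses, and members of the small lists. The remaining genes called at 120 h were named after their values were seen. Where a gene was named as a rise or fall, groups that did not overlap were part of its choice and add no support. Some items that the rule names are not reported here.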

Additional observations from a re-analysis of the deposited data

Results flagged for a closer look

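Within groups of 4 libraries, 18 of the 525 sets of values of the genes described had 1 library far from the other 3, by Dixon's criterion at the 95% level for sets with a mean of at least 5 CPM. Chance alone gives about 1 in 20. Experiment 3 was the distant library in 8 of them. It was low for Slc1a3 at 24 h (4.41 CPM, the others 8.96 to 9.72), Slc12a7 at 24 h (13.9, others 18.2 to 18.7), Slc44a2 at 48 h (35.4, others 43.5 to 45.1) and at 96 h (28.3, others 47.3 to 50.9), and for Slc25a36 (37.5, others 63.9 to 67.9) and Slc3a2 (90.5, others 109) in 96 h + 2iL. It was high for Slc25a20 at 24 h (28.4, others 14.1 to 14.6) and Slc7a1 at 120 h (71.2, others 26.3 to 29.5).

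Experiment 1 was high for Slc7a1 at 24 h (108 CPM, the others 76.2 to 79.7), Slc20a2 at 24 h (17, others 5.67 to 7.54) and Slc7a7 at 120 h (9.7, others 5.85 to 6.25). Experiment 2 was high for Slc30a9 at 48 h (21.2, others 13.5 to 14.7), Slc4a11 in 48 h + 2iL (17.2, others 13.3 to 14) and Slc27a3 in 96 h + 2iL (26, others 10.2 to 11.9). Experiment 4 was high for Slc6a8 in 2iL (97.1, others 77.8 to 80.2), Slc20a1 at 48 h (218, others 185 to 190), and Slc4a8 (18.7, others 10 to 11.3) and Slc25a23 (33.7, others 22.2 to 23.4) at 96 h.

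The response to 2iL after 96 h minus that after 48 h differed by the test of the difference itself for 5 genes, on the log2 scale by 0.78 for Slc20a1, -0.96 for Slc6a6, 1.60 for Slc25a23, 1.76 for Slc29a4 and 1.91 for Slc48a1. Over the alternatives the adjusted p by edgeR or DESeq2 ran from 0.00857 to 0.113 for Slc20a1, 0.00297 to 0.115 for Slc6a6, 0.0171 to 0.476 for Slc25a23, 0.0077 to 0.104 for Slc29a4 and 0.000196 to 0.0814 for Slc48a1.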

How the results depend on the processing

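No gene named reversed direction under the alternatives run. The balance of calls from 48 to 96 h turned, from 14 rises and 19 falls to 16 and 15 with library totals. Counts of calls that moved by over 1.5 times were these. From 96 to 120 h, with 0 by edgeR, DESeq2 gave 3 (0 up, 3 down), no filter on low counts 10 (1 and 9) and experiments 1, 2 and 4 alone, chosen after seeing the data, 5 (1 and 4). For 96 h + 2iL against 120 h, with 6, DESeq2 gave 10 (8 and 2), no filter 10 (7 and 3) and a fit of only the groups compared 0. For the difference of responses, with 5, library totals gave 3 (2 and 1), only the groups compared 3 (3 and 0) and experiments 1, 2 and 4 alone 1 (1 and 0). From 24 to 48 h, with 18, experiments 1, 2 and 4 alone gave 10 (4 and 6). The cause was not tested.

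With the experiment as a replicate block, 8 genes were called from 96 to 120 h (1 up, 7 down) and 10 for 96 h + 2iL against 120 h (8 and 2). Of the 413 calls for the genes named, this pairing ended 1, Slc9a9 at 48 h (adjusted p = 0.0541 by edgeR). Calls that it added were not followed gene by gene. Over all members it gave 55 calls in place of 50 at 48 h against 2iL, and 18 in place of 14 for 96 h + 2iL against 96 h.

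Leaving out each library in turn gave 31 to 40 calls at 24 h, 43 to 53 at 48 h, 63 to 73 at 96 h and 70 to 81 at 120 h against 2iL. It gave 9 to 19 from 24 to 48 h, 17 to 35 from 48 to 96 h and 0 to 8 from 96 to 120 h. After return it gave 30 to 42 against 48 h, 9 to 17 against 96 h, 2 to 10 against 120 h, and 19 to 32 and 57 to 73 against 2iL. The difference of responses gave 0 to 5 and the change across groups 98 to 106. Of 413 calls for 93 genes named, 129 were lost without some 1 library, 85 with experiments 1, 2 and 4 alone, 30 with only the groups compared, 27 with no filter, 18 with library totals, 4 with DESeq2 size factors and 3 with DESeq2. With library totals the median of all genes from 48 to 96 h was 0.106, against 0.017 with TMM. Depth, at 1554830 to 2828694 counts a library, limits genes near the 5 CPM minimum most.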
